A study of Homo sapiens with 6 samples.

Results

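The comparison described here set the 2 arrays of cells carrying the SHP2 miR2 construct against the 2 arrays of cells carrying a control miR, which are 4 of the 6 arrays of the study. The groups were taken from the sample labels, and each of the 18377 genes with an unambiguous probe set was a member, whatever its value. The cells were MCF10A-HER2/3, derived from MCF10A, an immortalised, non-tumorigenic line of human mammary epithelium; the labels do not say how HER2 and HER3 were introduced or whether the cells were a clone or a pool. All 3 groups, control miR, SHP2 miR1 and SHP2 miR2, carried an inducible miR and received doxycycline from the day after seeding, refreshed every 2 days, so the inducer was shared by treated and control cells. They were grown in three-dimensional culture for 15 days in a medium with horse serum, hydrocortisone, insulin, EGF and cholera toxin, and total RNA was hybridised to 1-colour Affymetrix HuGene-1_0-st-v1 arrays. Differences between SHP2 miR2 and control used only these 4 arrays. The SHP2 miR1 arrays also entered the choice of probe set per gene and limma's estimate of spread, and so every SE and p-value. Their own values are given only where the 2 constructs were set side by side. Whether the replicates are separate cultures is not stated in the labels; the p-values therefore reflect no more than the scatter among these arrays, part or all of which may be technical.

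SHP2 is a cytoplasmic protein tyrosine phosphatase encoded by PTPN11. Its SH2 domains dock on phosphorylated tyrosines of growth factor receptors and of adaptors such as GAB1, and its activity is known to be needed for full activation of RAS and ERK below many receptor tyrosine kinases. HER2 (ERBB2) and HER3 (ERBB3) signal as a pair in mammary epithelium: HER2 has no known ligand and a strong kinase, and HER3 binds neuregulins and recruits PI3-kinase. In three-dimensional culture MCF10A cells form hollow spheres of polarised cells, and activated HER2 disturbs that structure. The design asks what changes in such cultures when SHP2 is lowered, and SHP2 miR2 is the construct with the smaller mean loss of PTPN11 mRNA on these arrays.

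All values below are probe set values on a log2 scale, as deposited by the authors, and a difference is the mean of the 2 SHP2 miR2 arrays minus the mean of the 2 control arrays. Array medians were 5.31 and 5.23 for control and 5.26 and 5.27 for SHP2 miR2, and replicates correlated across genes at 0.986 and 0.985. The median difference over all genes was -0.01. The basal keratin KRT5 was high, at 10.97 and 11.10 in control and 11.39 and 11.46 with SHP2 miR2. The oestrogen receptor gene ESR1 stayed between 4.12 and 4.41 on these 4 arrays. Luminal keratins were mixed. In control KRT7 read 11.18 and 11.14, KRT8 10.5 and 10.51, and KRT18 10.74 and 10.69. KRT19 read 5.88 and 5.64, and KRT23 4.45 and 4.43. CDKN2A, a gene deleted in MCF10A, read 5.64 and 5.42 in control and 5.12 and 5.37 with SHP2 miR2, above ESR1. These markers therefore did not show a purely basal profile. Of 40 markers of fibroblasts, endothelium, leukocytes and adipocytes, 0 passed limma's test and 4 had an unadjusted p under 0.05. Over all 18377 genes, 2025 had such a p. List medians of these markers on the 4 arrays were 5.11 to 5.22 for fibroblasts, 4.46 to 4.52 for endothelium, 4.61 to 4.92 for leukocytes and 4.46 to 4.95 for adipocytes. In both groups 7 of 10 fibroblast, 8 of 10 endothelial, 7 of 11 leukocyte and 8 of 9 adipocyte markers lay below the median of all genes. Single members were high: DCN of the fibroblast list averaged 8.30 in control and 8.48 with SHP2 miR2. CD68 of the leukocyte list averaged 9.50 and 9.36.

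PTPN11 read 7.96 and 8.44 on the control arrays and 6.90 and 7.28 with SHP2 miR2. Both SHP2 miR2 arrays lay below both controls, and the group means differed 2.16-fold. The difference was -1.11 (SE 0.22, 95% interval -1.59 to -0.62), with an unadjusted p of 0.000584 and an adjusted p of 0.0813 in limma's test over all genes, so the targeted gene itself missed the threshold of 0.05. With a mean-variance trend in limma's prior the adjusted p was 0.0040, and with dim genes left out it was 0.0495. Leaving out single arrays moved the difference between -1.35 and -0.87. SHP2 miR1, measured against the same controls, gave a difference of -2.32. The direct difference between the constructs in PTPN11 was 1.21 (95% interval 0.73 to 1.70, adjusted p = 0.0645).

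**Figure D1:**
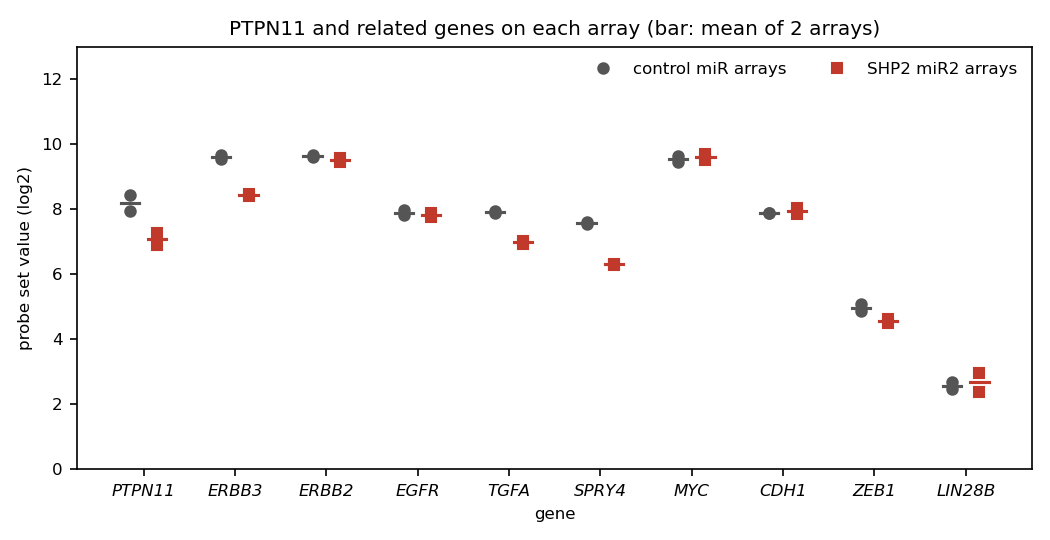
Probe set value (log2, vertical axis) of 10 genes on each control miR array (grey circles) and SHP2 miR2 array (red squares); horizontal bars are the means of 2 arrays. PTPN11, ERBB3, TGFA, SPRY4 and ZEB1 show no overlap, with both SHP2 miR2 arrays lower. The same order holds for ERBB2, but its arrays lie close together. Those of EGFR, MYC, CDH1 and LIN28B overlap between groups.

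Against this modest loss of PTPN11 mRNA, 68 genes passed the threshold, which is 0.37% of the 18377 tested. Of these, 35 rose (0.19% of all genes) and 33 fell (0.18%). The 5 largest increases were in LTF, KRT10, C1S, KRT16 and CCDC69, and the 5 largest decreases in CHRNA9, TLR2, PRDM1, RHCG and HTR1D. In all 68 genes both SHP2 miR2 arrays lay beyond both controls. The called differences were at least 0.86 in size, with a median of 1.15, and 58 of them were at least 2-fold. Before adjustment, 2025 of the 18377 genes had a p under 0.05 (944 higher, 1081 lower), where 919 would by chance. Unadjusted counts in the gene lists are to be read beside 2025 of 18377, and many lie near or below that share.

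A wider description counts genes as separated when both SHP2 miR2 arrays lay beyond both controls and the means differed by at least 0.5. By that measure 493 genes were higher (2.68% of all genes) and 556 lower (3.03%). Separated counts in every gene list and family below are to be read beside these shares. Called counts are to be read beside 0.19% of all genes higher and 0.18% lower. A list count of 1 or 2 genes shows little about the list. With 2 arrays against 2, an exact permutation test of a single gene cannot go below a p of 0.333, so every call rests on the spread that limma pools over genes. Calls depended on single arrays: 0 genes passed limma's test without control replicate 1, where 2108 had an unadjusted p under 0.05, and 0 without control replicate 2, where 1503 did. CHRNA9, ETS2, KRT10 and LTF passed without SHP2 miR2 replicate 1, and LTF passed without SHP2 miR2 replicate 2. In these fits the lone array left in a group is assumed to vary like the other groups. Leaving out 1 array could not turn the direction of any of the 68 genes, since both SHP2 miR2 arrays lay beyond both controls. Their differences stayed at least 0.85 in size.

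**Figure D2:**
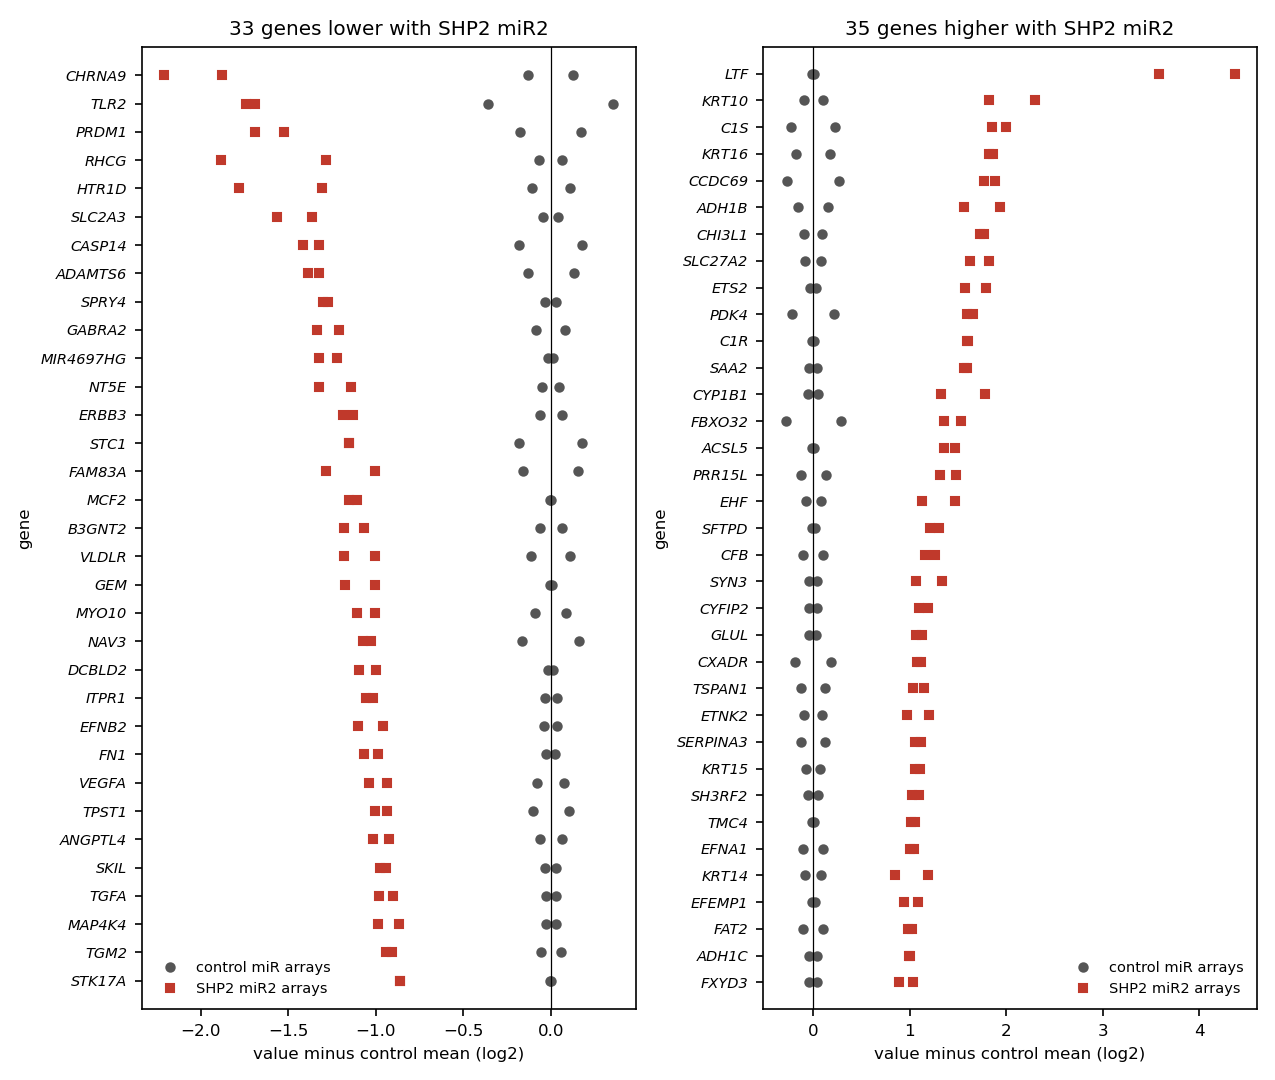
Value on each array minus the gene's control mean (log2, horizontal axis) for the 33 genes that fell (left panel) and the 35 that rose (right panel); grey circles are control miR arrays and red squares SHP2 miR2 arrays. In each gene both SHP2 miR2 arrays lie on 1 side of both controls, with LTF farthest out at a mean of 3.97.

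Among the receptors through which SHP2 acts, ERBB3 fell and ERBB2 and EGFR stayed close to control. ERBB3 read 9.67 and 9.54 in control and 8.48 and 8.42 with SHP2 miR2, a difference of -1.16 (SE 0.15, adjusted p = 0.0143). The SHP2 miR2 arrays were both more than 1 log2 unit below the lower control. ERBB2 read 9.66 and 9.61 against 9.59 and 9.46 (difference -0.12, 95% interval -0.44 to 0.21, adjusted p = 0.819). EGFR, the receptor for the EGF in the medium, read 7.98 and 7.82 against 7.88 and 7.78 (-0.07, 95% interval -0.41 to 0.27, adjusted p = 0.905), and its groups overlapped.

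TGFA, an EGF-family ligand that binds EGFR, also fell. Its values were 7.89 and 7.95 in control and 7.02 and 6.94 with SHP2 miR2 (-0.94, SE 0.14, adjusted p = 0.0335). In the list of ERBB receptors and ligands, 0 of 14 measured members rose and 2 fell, with a median difference of -0.09. EREG (epiregulin, -0.82, adjusted p = 0.0683) and BTC (betacellulin, -0.56, adjusted p = 0.223) were separated on the lower side without passing. Separated list members that did not pass were chosen for mention after their values were seen, here and in the later lists.

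SPRY4, a feedback inhibitor that ERK signalling induces, fell. It read 7.63 and 7.56 in control and 6.29 and 6.32 with SHP2 miR2 (-1.29, SE 0.14, adjusted p = 0.00972), with replicates of each group within 0.10 of each other. It was the 1 called gene among 24 genes of ERK pathway output, but 10 of the 24 (41.7%) were separated on the lower side and 0 on the higher side, beside 3.03% of all genes. The median of the list was -0.40, beside -0.01 for all genes. The separated members included the ERK phosphatases DUSP4 (-0.81, adjusted p = 0.0871), DUSP5 (-0.70, adjusted p = 0.121) and DUSP6 (-0.71, adjusted p = 0.207). The immediate early factor EGR1 (-0.74, adjusted p = 0.141), the AP-1 subunit FOSL1 (-0.63, adjusted p = 0.149) and IER3 (-0.75, adjusted p = 0.0970) were separated in the same direction.

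The SHP2 partners and the RAS-ERK cascade itself had 0 called genes among 17 measured (5 at an unadjusted p under 0.05, all lower), and 4 were separated on the lower side, with a list median of -0.12 (-0.08 with quantile normalization). Besides PTPN11 these were the insulin receptor substrate IRS2 (-0.97, adjusted p = 0.0945), the RAS GTPase-activating protein RASAL2 (-0.67, adjusted p = 0.127) and the ubiquitin ligase CBL (-0.52, adjusted p = 0.282). MYC read 9.44 and 9.63 in control and 9.70 and 9.53 with SHP2 miR2 (0.08, adjusted p = 0.902), and the groups overlapped. The group values of CDH1, which encodes E-cadherin, overlapped as well, at 7.90 and 7.89 against 8.04 and 7.86 (0.05, adjusted p = 0.930). ZEB1, a repressor of CDH1, read 5.08 and 4.87 against 4.49 and 4.61 (-0.42, adjusted p = 0.351). LIN28B, which blocks let-7 maturation, read 2.46 and 2.67 against 2.97 and 2.39 (0.11, adjusted p = 0.885); both groups were among the dimmest genes of the arrays, and the sign turned under quantile normalization.

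Genes that FOXO factors are known to induce when PI3-kinase signalling is low rose in 2 cases. PDK4, which inhibits pyruvate dehydrogenase and so spares glucose, read 4.63 and 5.07 in control and 6.44 and 6.51 with SHP2 miR2 (1.63, SE 0.18, adjusted p = 0.00946). FBXO32, the muscle-atrophy ubiquitin ligase atrogin-1, read 4.69 and 5.26 against 6.34 and 6.51 (1.45, SE 0.23, adjusted p = 0.0425). Both genes had a gap of over 1 log2 unit between the higher control and the lower SHP2 miR2 array. Of 26 measured members of the list, 2 rose and 1, ERBB3, fell; 9 (34.6%) were separated on the higher side, beside 2.68% of all genes, and 2 (7.69%) on the lower. The list median was 0.26. Separated on the higher side without passing were the death ligand TNFSF10 (0.98, adjusted p = 0.0654), the repressor BCL6 (1.03, adjusted p = 0.0820) and the mTORC1 inhibitor SESN1 (0.66, adjusted p = 0.123). IRS2, also a member of this list, was separated on the lower side without passing (-0.97, adjusted p = 0.0945).

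Genes of the hypoxia and glycolysis list fell in 3 cases. SLC2A3, the glucose transporter GLUT3, read 7.49 and 7.40 in control and 5.88 and 6.08 with SHP2 miR2 (-1.47, SE 0.16, adjusted p = 0.00934). VEGFA, the endothelial growth factor, read 8.31 and 8.46 against 7.45 and 7.35 (-0.99, SE 0.15, adjusted p = 0.0321). ANGPTL4, a secreted inhibitor of lipoprotein lipase, read 9.69 and 9.57 against 8.70 and 8.61 (-0.97, SE 0.16, adjusted p = 0.0463). In each of these genes the lower control exceeded the higher SHP2 miR2 array. Of 30 measured list members 0 rose, 3 fell and 7 (23.3%) were separated on the lower side, with a median of -0.35. ADM, the vasodilator peptide adrenomedullin, was separated at -1.03 (adjusted p = 0.0546) and EGLN3, a prolyl hydroxylase that marks HIF for degradation, at -0.84 (adjusted p = 0.0830). Among 14 measured facilitative glucose transporters, 1, SLC2A3, passed the test.

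HIF binds DNA at the letters ACGTG, and the promoter of ANGPTL4 is shown because this gene was called in the list that HIF is known to drive. In the promoter table from RefSeq (GRCh38.p14), the 300 bases from 250 before to 50 after the start of ANGPTL4 hold 1 match to ACGTG, counting both strands. The bases before the start lie at chr19:8363905-8364154 on the plus strand, and the capitals mark the match, which reads CACGT on this strand and begins 234 bases before the start.
ANGPTL4: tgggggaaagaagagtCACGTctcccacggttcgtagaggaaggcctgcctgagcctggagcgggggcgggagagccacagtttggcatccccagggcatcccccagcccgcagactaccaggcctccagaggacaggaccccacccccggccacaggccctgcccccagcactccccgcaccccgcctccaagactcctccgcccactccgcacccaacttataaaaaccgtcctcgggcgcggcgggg
Such a match was present in 7518 of 35116 promoters of that length (21.4%) and in 20 of 45 promoters of the measured list members (44.4%), where a gene can have several overlapping promoters. A match describes letters and is no measured binding site.

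Of 19 measured genes for secreted defence proteins of mucosal surfaces, 4 rose and 0 fell, beside 0.19% and 0.18% of all genes. The largest change of the whole comparison was in LTF, which encodes lactoferrin, the iron-binding antimicrobial protein of milk: 4.62 and 4.60 in control and 8.98 and 8.19 with SHP2 miR2. The difference was 3.97 (SE 0.24), or 15.7-fold, with an adjusted p of 0.000639. Control arrays were below 4.76, the level that 40% of probe sets do not exceed, and both SHP2 miR2 arrays were far above it. CHI3L1, a chitinase-like secreted glycoprotein, read 5.70 and 5.51 against 7.37 and 7.34 (1.75, SE 0.15, adjusted p = 0.00442). The acute phase protein SAA2 read 8.13 and 8.21 against 9.76 and 9.74 (1.58, SE 0.15, adjusted p = 0.00520). SFTPD, a collectin that binds microbial sugars, read 5.31 and 5.34 against 6.53 and 6.63 (1.26, SE 0.14, adjusted p = 0.00993). The groups were apart in all 4 genes, and the spread between replicates was largest in LTF with SHP2 miR2.

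In that list 7 genes (36.8%) were separated on the higher side, with a median of 0.27, which was 0.17 with quantile or cyclic loess normalization (6 genes separated with the latter). The other separated members were SAA1 (0.75, adjusted p = 0.0881), the acute phase glycoprotein ORM1 (0.87, adjusted p = 0.0830) and ceruloplasmin, CP (0.59, adjusted p = 0.331). Members differed in sign: LCN2, the siderophore-binding lipocalin, picked after its values were seen, read 6.78 and 6.73 in control and 6.43 and 6.18 with SHP2 miR2 (-0.45, adjusted p = 0.322). SERPINA3, the acute phase inhibitor antichymotrypsin, was the 1 called gene of 20 in the STAT3 and gp130 list, at 9.12 and 9.37 against 10.36 and 10.30 (1.08, adjusted p = 0.0264). The receptor LIFR (0.73, adjusted p = 0.141) and the factor CEBPD (0.69, adjusted p = 0.129) were also separated on the higher side there, and the kinase JAK2 (-0.67, adjusted p = 0.237) on the lower.

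Of 14 measured complement genes, 3 rose and 0 fell, beside 0.19% and 0.18% of all genes. C1S, a serine protease of the first complement complex, read 4.99 and 5.44 in control and 7.07 and 7.21 with SHP2 miR2 (1.93, SE 0.19, adjusted p = 0.00520). Its partner protease C1R read 6.71 and 6.73 against 8.32 and 8.32 (1.6, SE 0.15, adjusted p = 0.00442). CFB, factor B of the alternative pathway, read 8.06 and 8.27 against 9.33 and 9.43 (1.21, SE 0.15, adjusted p = 0.0143). The replicates of C1R were the closest among these, and no control array reached an SHP2 miR2 array in any of the 3. C1S and C1R are neighbours, with no tested gene between them. In the list 5 genes (35.7%) were separated on the higher side, the other two being C1RL (0.51, adjusted p = 0.257) and clusterin, CLU (0.61, adjusted p = 0.184). The list median was 0.22, and C3, the central component, also picked after its values were seen, read 11.18 and 11.10 against 11.26 and 11.07 (0.02, adjusted p = 0.973), with overlapping groups.

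Promoters of LTF, CHI3L1, C1R and CFB, called genes of the mucosal and complement lists, were searched in the same way. Those of LTF and CFB are shown because they held a match. The letters searched were TTNNNGAA on both strands and, added after the data were seen, TTCNNNGAA, the palindrome that STAT factors bind, which can overlap it. In the RefSeq table (GRCh38.p14) the LTF window held 1 match to TTNNNGAA, beginning 127 bases before the start, and the CFB window held 0 such matches but 1 match to TTCNNNGAA, beginning 92 bases before the start. Capitals mark these matches in the bases before each start, which lie at chr3:46485235-46485484 on the minus strand for LTF and at chr6:31945845-31946094 on the plus strand for CFB.
LTF: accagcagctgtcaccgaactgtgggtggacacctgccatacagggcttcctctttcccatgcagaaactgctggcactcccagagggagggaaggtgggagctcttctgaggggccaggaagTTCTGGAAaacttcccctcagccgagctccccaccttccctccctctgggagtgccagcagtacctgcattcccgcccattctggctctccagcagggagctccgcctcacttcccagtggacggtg
CFB: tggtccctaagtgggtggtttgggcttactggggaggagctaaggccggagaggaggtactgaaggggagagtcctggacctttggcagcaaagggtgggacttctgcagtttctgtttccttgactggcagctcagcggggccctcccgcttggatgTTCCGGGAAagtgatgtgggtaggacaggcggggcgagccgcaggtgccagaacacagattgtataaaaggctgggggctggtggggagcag
In C1R and CHI3L1 neither motif had a match in this window. TTNNNGAA was present in 35.2% of all 35116 promoters, in 6 of 13 promoters of the mucosal list (46.2%) and in 3 of 17 of the complement list (17.6%). TTCNNNGAA was present in 7.66% of all promoters, in 1 of 13 (7.69%) and in 5 of 17 (29.4%) respectively.

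Keratins that build the intermediate filaments of stratified epithelium rose in 4 cases. KRT10, a keratin of suprabasal epidermis, read 4.84 and 4.64 in control and 6.56 and 7.04 with SHP2 miR2 (2.06, SE 0.20, adjusted p = 0.00520). KRT16, which is induced in activated keratinocytes, read 8.16 and 7.82 against 9.86 and 9.81 (1.84, SE 0.16, adjusted p = 0.00442). The basal keratins KRT15 and KRT14 had smaller differences. KRT15 read 7.69 and 7.83 against 8.81 and 8.86 (1.08, SE 0.15, adjusted p = 0.0210), and KRT14 read 9.85 and 9.69 against 10.96 and 10.62 (1.02, SE 0.17, adjusted p = 0.0463). All 4 keratins were separated, KRT14 with the smallest gap. Of 48 keratins measured, 4 rose and 0 fell, with differences from -0.33 to 2.06 and a median of 0.10. Over all genes 0.19% rose and 0.18% fell. KRT14 and KRT16 had no tested gene between them; keratins are a family of similar sequence, and probe sets were taken as annotated.

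Squamous differentiation genes moved both ways. Of 31 measured, KRT10 and KRT16 rose and CASP14 and RHCG fell, with 8 (25.8%) separated on the higher side, 2 (6.45%) on the lower and a median of 0.11. CASP14, a protease of the cornifying epidermis, read 7.33 and 6.97 in control and 5.82 and 5.73 with SHP2 miR2 (-1.37, SE 0.17, adjusted p = 0.0140), so its direction was opposite to that of the keratins. The cornified envelope precursor SPRR1B (0.86, adjusted p = 0.0654) and its crosslinking enzyme TGM1 (0.83, adjusted p = 0.0675) were separated on the higher side. KRT1, the usual partner of KRT10, read 5.08 and 4.80 against 5.02 and 4.92 (0.03, adjusted p = 0.967), and the envelope protein gene IVL read 5.25 and 4.57 against 4.94 and 4.45 (-0.22, adjusted p = 0.818); both overlapped between groups. KRT1 and IVL were chosen after their values were seen. Among 16 basal mammary markers KRT14 and KRT15 rose and 0 fell (median 0.06), and among 29 luminal markers LTF and EHF rose and 0 fell (median 0.12). MUC1 (0.53, adjusted p = 0.309) was separated on the higher side and CD24 (-0.69, adjusted p = 0.255), another luminal marker, on the lower.

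Among transcription factors, ETS2 and EHF rose and PRDM1 fell. ETS2, an ETS factor that RAS signalling is known to activate by phosphorylation, read 6.79 and 6.85 in control and 8.40 and 8.62 with SHP2 miR2 (1.69, SE 0.15, adjusted p = 0.00442). EHF, an epithelium-specific ETS factor, read 4.37 and 4.21 against 5.42 and 5.76 (1.30, SE 0.18, adjusted p = 0.0210). They were the 2 called among 26 ETS factors measured, while ETV4 (-0.62, adjusted p = 0.340) and ELK3 (-0.60, adjusted p = 0.250) were among the 3 separated on the lower side. PRDM1, the repressor BLIMP1, read 8.0 and 8.35 against 6.65 and 6.49 (-1.61, SE 0.19, adjusted p = 0.00993), with every SHP2 miR2 value over 1 log2 unit below the lower control.

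In the list of AHR targets and alcohol and aldehyde dehydrogenases, 3 of 22 measured genes rose and 0 fell. The shares over all genes were 0.19% and 0.18%. ADH1B, a class I alcohol dehydrogenase, read 3.46 and 3.76 in control and 5.18 and 5.54 with SHP2 miR2 (1.75, SE 0.18, adjusted p = 0.00764). ADH1C, its neighbour with no tested gene between them, read 3.58 and 3.67 against 4.62 and 4.63 (1.0, SE 0.14, adjusted p = 0.0251). The sequences of the 2 are closely alike, so probes may share signal between them, and control values of both were below 4.76. CYP1B1, a cytochrome P450 that hydroxylates oestradiol and is induced by the AHR receptor, read 4.91 and 5.02 against 6.75 and 6.29 (1.56, SE 0.18, adjusted p = 0.00993). Of the 22 genes, 6 (27.3%) were separated on the higher side and 0 on the lower, with a median of 0.09. ALDH3A1 was among the separated (0.84, adjusted p = 0.0609), as was AHR itself (0.61, adjusted p = 0.201).

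SLC27A2, which takes up and activates very long-chain fatty acids, read 3.87 and 4.03 in control and 5.57 and 5.77 with SHP2 miR2 (1.72, SE 0.17, adjusted p = 0.00520). ACSL5, a long-chain acyl-CoA synthetase, read 4.85 and 4.87 against 6.21 and 6.33 (1.41, SE 0.15, adjusted p = 0.00762). Both genes went from a low control level to a separated higher one. In the lists of lipid synthesis, 0 of 21 fatty acid and lipid genes and 0 of 19 cholesterol genes passed limma's test (4 and 5 at an unadjusted p under 0.05), with medians of 0.08 and 0.07. GLUL, glutamine synthetase, had the highest control level of the genes that rose, at 10.33 and 10.40 against 11.50 and 11.44 (1.10, SE 0.14, adjusted p = 0.0181). VLDLR, a lipoprotein receptor, fell by 1.09 (adjusted p = 0.0294), as the 1 called of 26 genes in the ATF4 and amino acid list.

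Cell surface receptors were among the largest decreases. CHRNA9, a nicotinic acetylcholine receptor subunit, read 7.41 and 7.67 in control and 5.66 and 5.33 with SHP2 miR2 (-2.05, SE 0.18, adjusted p = 0.00442). TLR2, which recognises bacterial lipoproteins, read 5.34 and 6.06 against 4.01 and 3.96 (-1.72, SE 0.24, adjusted p = 0.0242). HTR1D, a serotonin receptor, read 6.31 and 6.09 against 4.42 and 4.89 (-1.54, SE 0.20, adjusted p = 0.0191). GABRA2, a subunit of the GABA-A chloride channel, read 7.58 and 7.75 against 6.45 and 6.33 (-1.27, SE 0.15, adjusted p = 0.0119). None of the 4 overlapped between groups, although the TLR2 controls lay farther apart than those of the other genes. Each was the only called member of its family: 1 of 15 nicotinic subunits, 1 of 8 toll-like receptors, 1 of 17 serotonin receptors and 1 of 15 GABA-A subunits. TLR3, which senses double-stranded RNA, was separated on the higher side (0.87, adjusted p = 0.129).

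In the list of adenosine, ammonium, water and ion transport, 4 of 24 measured genes fell and 0 rose: CHRNA9 and GABRA2, given above, and RHCG and NT5E. RHCG, an ammonium transporter, read 8.43 and 8.30 in control and 7.08 and 6.48 with SHP2 miR2 (-1.59, SE 0.21, adjusted p = 0.0210). NT5E, the ectonucleotidase CD73 that makes extracellular adenosine, read 10.53 and 10.63 against 9.44 and 9.25 (-1.24, SE 0.15, adjusted p = 0.0127), and had the highest control level of the genes that fell. The list median was -0.02. The water and glycerol channel AQP9 was separated at -1.13 (adjusted p = 0.0952), and the adenosine receptor ADORA2B at 0.63 (adjusted p = 0.299).

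From the lists of mesenchymal genes, matrix proteases and TGF-beta targets, 1 gene each fell: FN1, ADAMTS6 and SKIL. FN1, the matrix protein fibronectin, read 8.76 and 8.82 in control and 7.80 and 7.72 with SHP2 miR2 (-1.03, SE 0.15, adjusted p = 0.0251). ADAMTS6, a secreted metalloproteinase, read 5.84 and 6.11 against 4.65 and 4.59 (-1.36, SE 0.16, adjusted p = 0.00993). SKIL, a SMAD co-repressor that TGF-beta induces, read 7.73 and 7.66 against 6.72 and 6.75 (-0.96, SE 0.15, adjusted p = 0.0335). TGM2, a transglutaminase that crosslinks matrix and was named after its values were seen, fell by 0.92 (adjusted p = 0.0425), from 8.02 and 7.90 to 7.05 and 7.02. In none of the 4 did the groups overlap.

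FN1 was the 1 called gene of 28 measured in the mesenchymal list (median -0.19), where 7 (25.0%) were separated on the lower side and 0 on the higher. The separated members included the factors SNAI2 (-0.85, adjusted p = 0.100) and ZEB2 (-0.80, adjusted p = 0.0673), the fibronectin receptor subunit ITGA5 (-0.80, adjusted p = 0.0917) and fibrillin, FBN1 (-0.75, adjusted p = 0.0820). Vimentin, VIM, read 10.56 and 10.66 in control and 10.41 and 10.31 with SHP2 miR2 (-0.25, adjusted p = 0.589), a value picked after it was seen. Of 26 measured TGF-beta targets 0 rose and 1 fell, SKIL, with a median of -0.19; the activin subunit INHBA was at -1.17 (adjusted p = 0.192), where 1 SHP2 miR2 array read 4.43 and the other 5.59. Of 18 matrix protease genes ADAMTS6 alone passed, and the urokinase gene PLAU was separated at -0.88 (adjusted p = 0.0523). Of 12 laminin and hemidesmosome genes 0 passed (3 at an unadjusted p under 0.05): LAMB3 was separated at -0.55 (adjusted p = 0.208) and LAMB1, a laminin chain of another trimer, at 0.70 (adjusted p = 0.0914). Of 25 junction and polarity genes 0 passed (6 unadjusted, all higher) and 4 (16.0%) were separated on the higher side, among them the desmosomal cadherin DSG3 (0.63, adjusted p = 0.230) and the claudin CLDN7 (0.56, adjusted p = 0.230).

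The ephrins changed in opposite directions. EFNB2, a transmembrane ephrin, read 7.55 and 7.62 in control and 6.63 and 6.48 with SHP2 miR2 (-1.03, adjusted p = 0.0258). EFNA1, a lipid-anchored ephrin, read 6.56 and 6.76 against 7.66 and 7.71 (1.02, adjusted p = 0.0264). Both were separated, and they were the 2 called among 19 Eph receptors and ephrins, whose median was -0.00. YAP-TAZ targets had 0 higher and 1 lower call of 25, NT5E, with 6 (24.0%) separated on the lower side and 1 on the higher, the Rnd-family GTPase RND3 (0.76, adjusted p = 0.209). Those on the lower side included tissue factor, F3 (-0.91, adjusted p = 0.0523), and the receptor kinase AXL (-0.64, adjusted p = 0.124). In the Wnt list 0 of 30 passed (7 at an unadjusted p under 0.05, 4 of them higher), with 2 separated on each side. WNT5A, a ligand of the non-canonical pathway, was at -1.10 (adjusted p = 0.0523) and the receptor FZD2 at 0.70 (adjusted p = 0.161). In the Notch list 0 of 24 passed (4 unadjusted), with NOTCH1 at 0.61 (adjusted p = 0.191) and NOTCH2 at -0.59 (adjusted p = 0.169).

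Inflammatory and interferon genes gave no calls; the separated members of the first list lay below control and most of the second above. Of 26 NF-kB and inflammatory genes 0 passed (11 at an unadjusted p under 0.05, 10 of them lower) and 6 (23.1%) were separated on the lower side, 0 on the higher, with a median of -0.23. The neutrophil chemokine CXCL2 read 7.63 and 7.74 in control and 6.50 and 6.61 with SHP2 miR2 (-1.13, adjusted p = 0.0619), and the cytokine IL1B read 8.61 and 8.49 against 7.79 and 7.55 (-0.88, adjusted p = 0.0590). CXCL8, another neutrophil chemokine, was at -0.74 (adjusted p = 0.169). Of 38 interferon response genes 0 passed (12 unadjusted, 9 of them higher), 8 (21.1%) were separated on the higher side and 3 (7.89%) on the lower, with a median of 0.07. Those on the higher side included OAS1, which makes the activator of RNase L (0.82, adjusted p = 0.0590), and the membrane restriction factor IFITM1 (0.96, adjusted p = 0.0648), and those on the lower side SAMD9 (-0.95, adjusted p = 0.191). In the antigen presentation list 0 of 15 passed (3 unadjusted, all higher), and the peptide transporter TAP1 (0.82, adjusted p = 0.0977) and the immunoproteasome subunit PSMB9 (0.83, adjusted p = 0.0868) were separated.

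**Figure D3:**
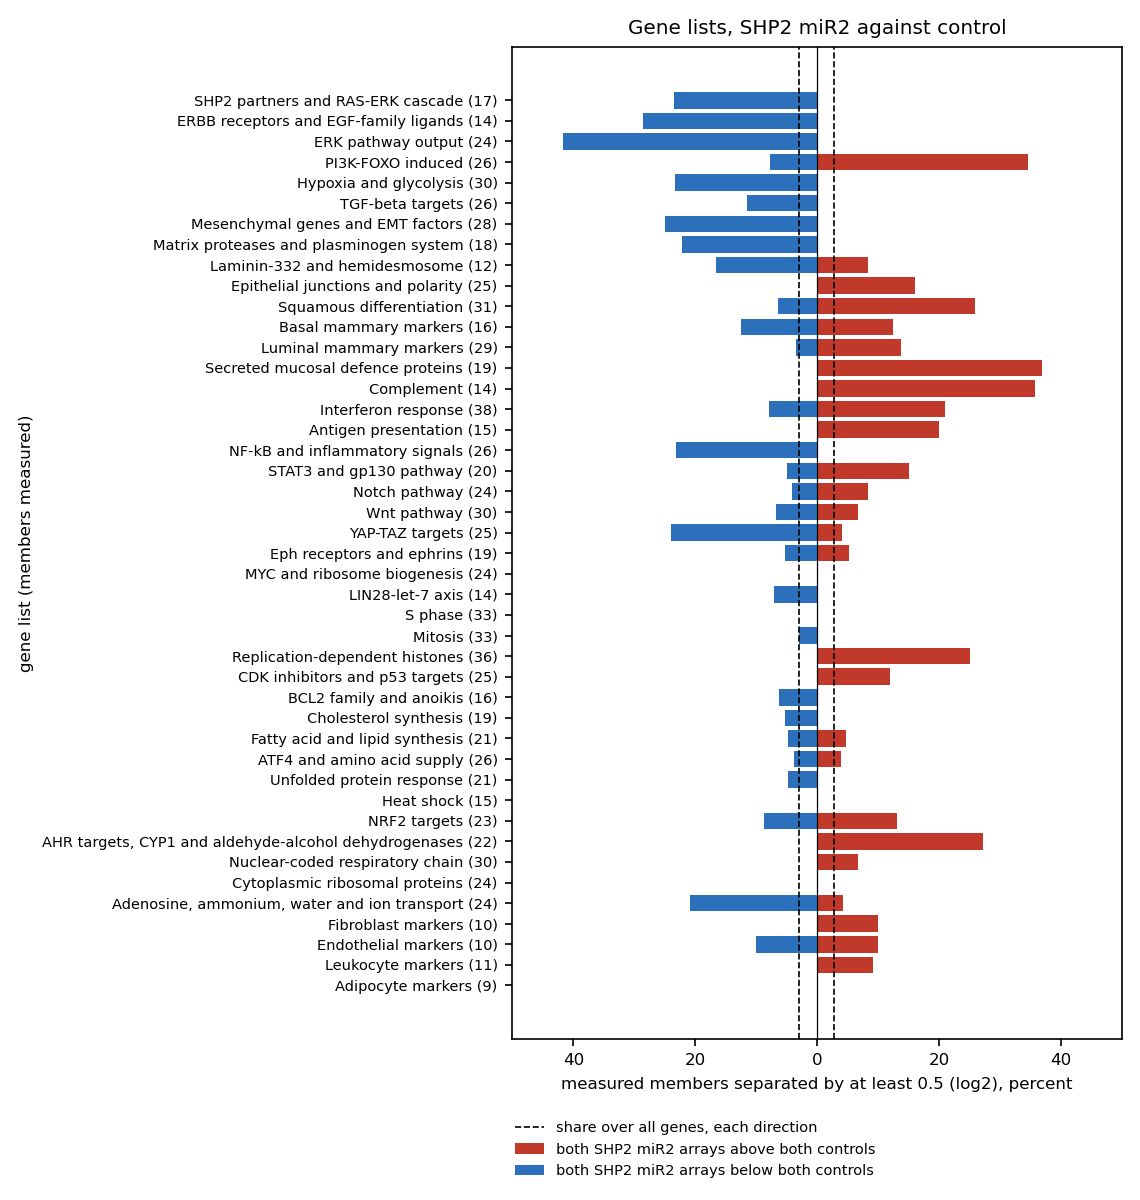
Percent of measured members of each of 44 gene lists (vertical axis, members measured in brackets) in which both SHP2 miR2 arrays lay above (red, right) or below (blue, left) both controls with a mean difference of at least 0.5 on the log2 scale; dashed lines are the shares over all genes, 2.68% and 3.03%. ERK pathway output reaches 41.7% on the lower side, and secreted mucosal defence and complement reach 36.8% and 35.7% on the higher side.

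Proliferation genes gave no calls. Of 33 S phase genes 0 passed and 0 were separated (median -0.04). An unadjusted p under 0.05 was found for 2 of the 33, beside 2025 of all 18377 genes. Of 33 mitosis genes 0 passed (2 unadjusted) and 1 was separated, the cytokinesis scaffold ANLN (-0.92, adjusted p = 0.124), with a median of -0.14. That 1 gene is 3.03% of the list, beside 3.03% of all genes. Replication-dependent histones differed from these: 0 of 36 passed (14 at an unadjusted p under 0.05, all higher), and 9 (25.0%) were separated on the higher side and 0 on the lower, with a median of 0.32. H2BC9 read 6.34 and 6.31 in control and 7.11 and 7.33 with SHP2 miR2 (0.90, adjusted p = 0.0817), and H2AC11 read 5.69 and 5.72 against 6.51 and 6.35 (0.73, adjusted p = 0.0883). Histone genes are near-identical copies, so probe sets may share signal, and the list counts are not independent genes. The lists of MYC and ribosome biogenesis (24 measured, median 0.01), cytoplasmic ribosomal proteins (24, median 0.07) and heat shock (15, median -0.16) had 0 called and 0 separated members, with 3, 2 and 0 at an unadjusted p under 0.05.

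The remaining lists had 0 called members in limma's test. Of 25 CDK inhibitor and p53 target genes 4 had an unadjusted p under 0.05 and 3 were separated on the higher side, including the stress cytokine GDF15 (0.81, adjusted p = 0.0948), with a median of 0.09. Of 23 NRF2 targets 6 had an unadjusted p under 0.05; the conjugate exporter ABCC2 was at 1.05 (adjusted p = 0.0590) and the glutathione synthesis subunit GCLC at -0.70 (adjusted p = 0.255), both separated. In the BCL2 family, with 3 of 16 at an unadjusted p under 0.05, the survival factor MCL1 was at -0.61 (adjusted p = 0.192). The respiratory chain list had 2 of 30 separated on the higher side, the unfolded protein response list 1 of 21 on the lower and the LIN28-let-7 list 1 of 14 on the lower, and their medians were 0.03, -0.17 and -0.10. These 3 lists had 5, 1 and 2 members at an unadjusted p under 0.05.

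The remaining called genes belonged to none of the groups above, and most were named after their values were seen. Among signalling and trafficking genes that fell were GEM, a small GTPase that restrains calcium channels (-1.09, adjusted p = 0.0230), the calcium release channel ITPR1 (-1.03, adjusted p = 0.0251) and the kinase MAP4K4 (-0.93, adjusted p = 0.0463). The filopodial motor MYO10 (-1.05, adjusted p = 0.0251), the hormone STC1 (-1.15, adjusted p = 0.0363), FAM83A (-1.15, adjusted p = 0.0335) and the glycosyltransferase B3GNT2 (-1.13, adjusted p = 0.0251) fell by similar amounts. DCBLD2, NAV3, TPST1, STK17A and the non-coding RNA gene MIR4697HG fell by 1.05, 1.05, 0.97, 0.86 and 1.27. MCF2 read 5.13 and 5.14 in control and 3.98 and 4.02 with SHP2 miR2 (-1.13, adjusted p = 0.0143).

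Genes that rose outside the groups above included CCDC69, a coiled-coil protein of the mitotic spindle midzone, at 5.12 and 4.58 in control and 6.74 and 6.62 with SHP2 miR2 (1.83, SE 0.20, adjusted p = 0.00934). The WAVE complex subunit CYFIP2 (1.14, adjusted p = 0.0152), the tight junction adhesion molecule CXADR (1.10, adjusted p = 0.0354), the atypical cadherin FAT2 (1.01, adjusted p = 0.0297) and the sodium pump regulator FXYD3 (0.96, adjusted p = 0.0358) are epithelial surface or cytoskeletal genes. PRR15L, SYN3, TSPAN1, ETNK2, SH3RF2, TMC4 and EFEMP1 rose by 1.40, 1.20, 1.09, 1.09, 1.06, 1.03 and 1.02. A control mean under the 40th percentile of genes was found for 13 of the 35 genes that rose and 1 of the 33 that fell. By definition 40% of all genes lie under it. The median control mean was 5.80 for the genes that rose, 7.66 for those that fell and 5.80 for all genes.

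SHP2 miR1 and SHP2 miR2 were compared directly because their differences from control share the control arrays. SHP2 miR2 minus SHP2 miR1 had 35 called genes (0.19% of all genes), 28 higher and 7 lower with SHP2 miR2. Of the 68 genes called for SHP2 miR2, 9 passed in this direct test, and in all 9 the SHP2 miR2 arrays were nearer to control. RHCG read 7.08 and 6.48 with SHP2 miR2 and 4.47 and 4.77 with SHP2 miR1, a difference of 2.16 (95% interval 1.68 to 2.64, adjusted p = 0.00545). NT5E read 9.44 and 9.25 against 7.45 and 7.40 (1.92, 95% interval 1.58 to 2.26, adjusted p = 0.00499), and GABRA2 6.45 and 6.33 against 4.65 and 4.54 (1.8, 95% interval 1.45 to 2.14, adjusted p = 0.00499). These 3 genes, which fell with SHP2 miR2, had lower values still with SHP2 miR1. Among genes that rose, SFTPD read 6.53 and 6.63 against 8.21 and 8.15 (-1.60, 95% interval -1.92 to -1.27, adjusted p = 0.00499), and KRT15 read 8.81 and 8.86 against 10.31 and 10.32 (-1.48, 95% interval -1.81 to -1.15, adjusted p = 0.00545). LTF, at 8.98 and 8.19 against 10.48 and 10.31, differed by -1.81 (95% interval -2.34 to -1.28, adjusted p = 0.0304).

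**Figure D4:**
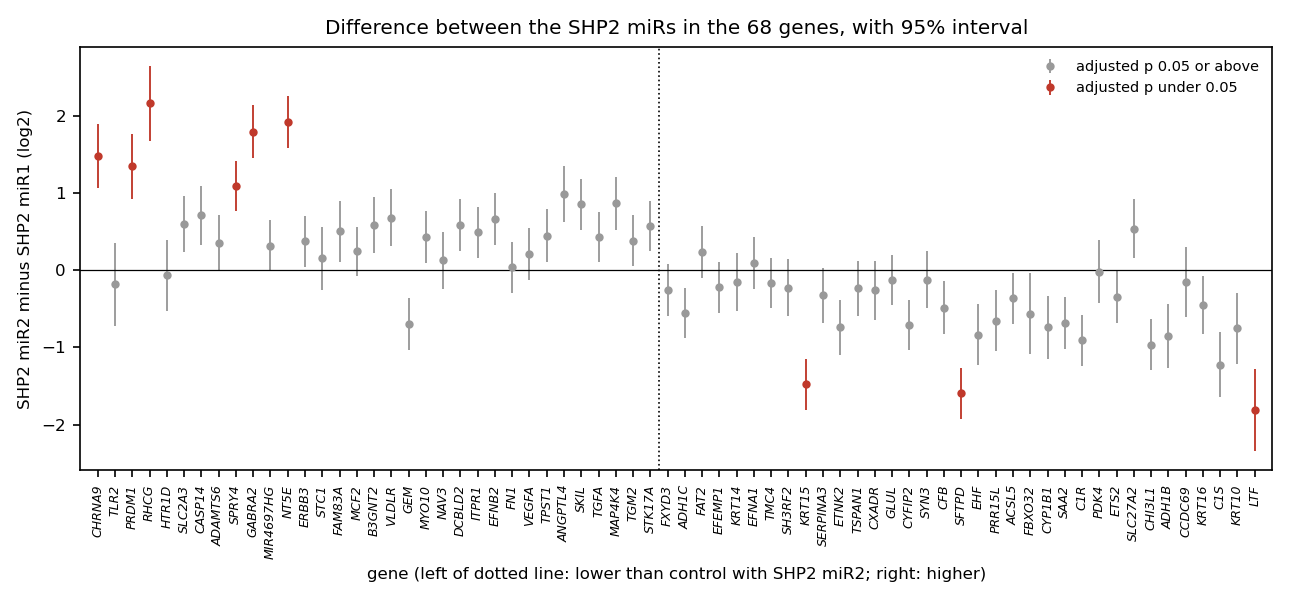
SHP2 miR2 minus SHP2 miR1 (log2, vertical axis) with its 95% interval for each of the 68 genes called for SHP2 miR2, ordered by their difference from control; genes that fell are left of the dotted line and genes that rose right of it, and red marks an adjusted p under 0.05. The 9 red genes run from -1.81 in LTF to 2.16 in RHCG, and 22 intervals span 0.

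For 22 of the 68 genes the 95% interval of the direct difference spanned 0. PDK4 was 1.63 above control with SHP2 miR2 and 1.65 with SHP2 miR1, and the constructs differed by -0.02 (95% interval -0.43 to 0.39). FN1 was at -1.03 and -1.07 (direct difference 0.04, 95% interval -0.29 to 0.37). In 6 of the 68 genes, TLR2, HTR1D, GEM, FAT2, EFNA1 and SLC27A2, the difference from control was larger in size with SHP2 miR2 than with SHP2 miR1. GEM was at -1.09 with SHP2 miR2 and -0.39 with SHP2 miR1 (direct difference -0.70, 95% interval -1.04 to -0.36, adjusted p = 0.105), and SLC27A2 at 1.72 and 1.18 (0.54, 95% interval 0.16 to 0.92, adjusted p = 0.174). The intervals of these 2 genes excluded 0, while their p-values adjusted over all genes missed the threshold; the intervals of TLR2, HTR1D, FAT2 and EFNA1 spanned 0.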

How the data were processed

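Expression was measured on 6 arrays, 2 per group. The values used are log2 probe set values as the authors deposited them, the base being taken from the span of the values. The submitters' processing notes name R 2.10 and oligo 1.8; how background was corrected, how arrays were normalized and which genome build was used is not given in the sources used here.

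Of 28869 probe sets, 19310 had 1 gene symbol, 1752 several and 7807 none; 19279 matched RefSeq by gene identifier. Per gene the probe set with the highest mean over all arrays was kept (685 genes had several), giving 18377 genes. A model of the 3 group means over the 6 arrays was fitted in limma 3.58.1 under R 4.3.3 (eBayes, 3 residual and 6.10 prior degrees of freedom; two-sided p, Benjamini-Hochberg over all genes, threshold 0.05). Adjusted p-values come from this fit, which was tested on simulated data, unless an alternative is named beside them.

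Deviations of same-numbered arrays correlated at 0.0669, 0.140 and 0.0134, so numbers were not taken to pair arrays.

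The comparison and the 44 gene lists were chosen with earlier results of these data known, and some lists hold genes picked for that reason; list counts are descriptions. Genes named were PTPN11, ERBB2, ERBB3, EGFR, MYC, ZEB1, LIN28B and CDH1; the 15 largest called changes each way; up to 4 called genes per list, or 2 of smallest p; up to 6 called between the constructs; the 5 highest in control each way; and neighbours. Other called genes, and list members under the threshold beyond 2 per list, were chosen after their values were seen. Alternatives covered the prior, dim genes, scaling, probe sets, array weights, arrays entered, a replicate block, a minimum difference and single arrays left out.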

Additional observations from a re-analysis of the deposited data

Results flagged for a closer look

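The constructs differed, by limma's direct test of SHP2 miR2 minus SHP2 miR1, in 11 of the named genes. Some of these were named because they passed this same test. Over all 18377 genes 35 (0.19%) passed it, so 11 is no rate among independently chosen genes. Higher values with SHP2 miR2 than with SHP2 miR1 were found for RHCG (2.16), NT5E (1.92), GABRA2 (1.8), CHRNA9 (1.49), PRDM1 (1.35), SPRY4 (1.09), the endothelial receptor kinase gene TEK (1.57) and the laminin chain gene LAMB3 (1.05). Lower values with SHP2 miR2 were found for LTF (-1.81), SFTPD (-1.60) and KRT15 (-1.48). TEK read 6.52 and 6.62 in control, 6.03 and 5.93 with SHP2 miR2 and 4.44 and 4.39 with SHP2 miR1; it did not pass against control for SHP2 miR2 (-0.59, adjusted p = 0.157). LAMB3 read 11.40 and 11.30, 10.89 and 10.70, and 9.77 and 9.72 in the same order (-0.55 against control, adjusted p = 0.208).

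Signal was also present in probe sets left out of the gene comparisons. Of 9559 probe sets without exactly 1 gene symbol, 6 passed the threshold for SHP2 miR2 against control in a fit over all probe sets, 5 higher and 1 lower, with 841 at an unadjusted p under 0.05; that fit called 39 probe sets in all.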

How the results depend on the processing

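The 68 genes kept their direction in every alternative run that tested them, but their number did not hold. A direction could turn only with another scaling or handling of probe sets, since both SHP2 miR2 arrays lay beyond both controls. Genes past the threshold for SHP2 miR2 against control numbered 367 (189 higher, 178 lower) with a mean-variance trend, 154 (82, 72) with dim genes left out, 10 (9, 1) with a minimum difference of 0.5, and 0 to 60 with 1 array left out (0 to 34 higher, 0 to 26 lower). With the replicate number as a block there were 37 (22 higher, 15 lower); the arrays share only a number. The other alternatives gave 58 to 75, and without the SHP2 miR1 arrays 60, of which 56 were among the 68. The PTPN11 difference was -1.07 with quantile and -1.085 with cyclic loess normalization. It was -1.35 to -0.87 with a control or SHP2 miR2 array left out, and -1.11 to -1.10 in the other runs. PTPN11 passed limma's test with the trend (adjusted p = 0.0040) and with dim genes left out (0.0495). SHP2 miR2 minus SHP2 miR1, with 35 calls, gave 446 with the trend, 95 without dim genes, 69 with centring on array medians, 55 with array weights, 12 with the replicate block, 9 with the minimum difference and 0 to 15 with 1 array left out. At a difference of at least 1, separated genes numbered 47 higher and 37 lower. Signs turned for CDH1 (-0.033 to 0.142 with 1 array left out, below 0 without SHP2 miR2 replicate 1), EGFR (-0.149 to 0.0063, above 0 without control replicate 1), LIN28B (-0.012 with quantile normalization, -0.18 to 0.40 with 1 array left out, below 0 without SHP2 miR2 replicate 1) and MYC (-0.019 to 0.172, below 0 without control replicate 1 and without SHP2 miR2 replicate 1); none of these genes was called. List medians kept their sign under 3 scalings in 38 of 44 lists; the 6 others were adipocyte, fibroblast, BCL2, Eph and ephrin, matrix protease and Notch, and no list median moved by more than 0.10. Over all other named genes and settings, 1592 values kept their side of the threshold, 281 lost it and 42 gained it. The cause of these shifts was not tested. With 2 arrays per group, the number of arrays limits every comparison.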

Other observations

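Genes on opposite sides of control with the 2 constructs were counted. Both differences subtract the same control arrays, so scatter in those pushes both to the same side. A low count is therefore no measure of agreement between the constructs. In 3 genes both SHP2 miR2 arrays lay below and both SHP2 miR1 arrays above both controls with mean differences of at least 0.5, and in 0 genes the other way round. The non-coding RNA gene MIR600HG read 4.28 and 4.29 in control, 3.52 and 3.38 with SHP2 miR2 and 4.65 and 5.31 with SHP2 miR1 (direct adjusted p = 0.0379 in limma's test). FOXA2, a pioneer factor of endodermal epithelia, read 6.54 and 5.96, 5.47 and 5.74, and 7.01 and 6.71 in the same order (direct adjusted p = 0.0640). FAM218A read 4.95 and 4.32, 4.08 and 4.10, and 5.36 and 5.01 (direct adjusted p = 0.0956). None of the 3 passed for SHP2 miR2 against control (adjusted p = 0.171, 0.318 and 0.413), and all were chosen after their values were seen.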
